A study of Drosophila melanogaster with 2 samples.

Results

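The 10 genes described here encode kinases, checkpoint proteins and their partners that drive and time mitosis in Drosophila melanogaster: aurA, aurB, polo, BubR1, Bub1, Bub3, mad2, fzy, CycB and stg. They were chosen by name, out of 13945 protein-coding genes on the major chromosome arms. Every interval of the deposited dm6 peak lists that overlapped such a gene, or 1 kb on either side of it, was taken. The chromatin came from whole embryos of the strain luna-MiMIC-GFP, 0 to 24 h old and of both sexes. In this strain an exon for eGFP inserted into an intron of luna yields a fusion protein, luna-eGFP, of the KLF-type zinc finger factor luna. Sonication gave fragments between 200 and 800 bp, and an anti-GFP antibody pulled down the fusion protein with its DNA. There were 2 biological replicates of this 1 group and no other condition. The whole embryo mixes all cell types and stages, so no signal can be assigned to dividing cells. A control that the labels list as possible was not used here.

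Entry into mitosis depends on cyclin-dependent kinase 1, which is bound by mitotic cyclins such as the CycB product and switched on by the Cdc25 phosphatase that stg encodes. Aurora and Polo kinases then build the spindle and attach chromosomes to it. Until all kinetochores are attached, the spindle assembly checkpoint proteins BubR1, Bub3 and mad2 hold back the fzy product, the Cdc20 activator of the anaphase-promoting complex. Early fly embryos divide rapidly on maternal stores, and later divisions follow zygotic pulses of stg transcription.

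Each interval carries a signal value set by the submitters, a score with no stated scale, and a summit. Rank 1 is the strongest interval of a list. The list of candidates from both replicates pooled held 21725 intervals, with signals from 15.5 to 689. The list that passed the irreproducible discovery rate (IDR), a filter on how well ranks repeat between replicates, held 1696 intervals with signals of 46.4 and above. These were the 1696 strongest pooled candidates. Each replicate list held 30000 candidates. Read depth is unknown, and signals of different lists were not set against each other.

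Of the 10 genes, 4 had an IDR summit within 500 bp of their own transcription start site (TSS), where 10.7% of all protein-coding genes had one. These were aurA, BubR1, polo and Bub3. With the strongest 1696 candidates of replicate 2 alone in place of the IDR list the count was 2 (aurA and polo), beside 10.5% of genes, and in the strongest 848 IDR peaks it was 1 (aurA), beside 5.79%. Another gene, CycB, had an IDR interval in its flank downstream of the gene, and it was the strongest of all at these loci. Thus 5 of 10 had an IDR interval in the gene or its 1 kb flanks, beside 16.8% of protein-coding genes. That count was 3 from replicate 2 alone, beside 16.5%, and 2 in the strongest 848, beside 9.22%. The genes spanned 959 to 5287 bp, with a median of 2785 bp, against 2166 bp over all protein-coding genes. Weaker candidates were common everywhere. A pooled candidate lay within 500 bp of a TSS in 9 of 10 genes, beside 45.9% of protein-coding genes, and 9 of 10 had one in the gene or its flanks, beside 69.2%. The gene without any was stg. As the genes were picked with earlier results of these data known, the counts are given with no test.

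**Figure D1:**
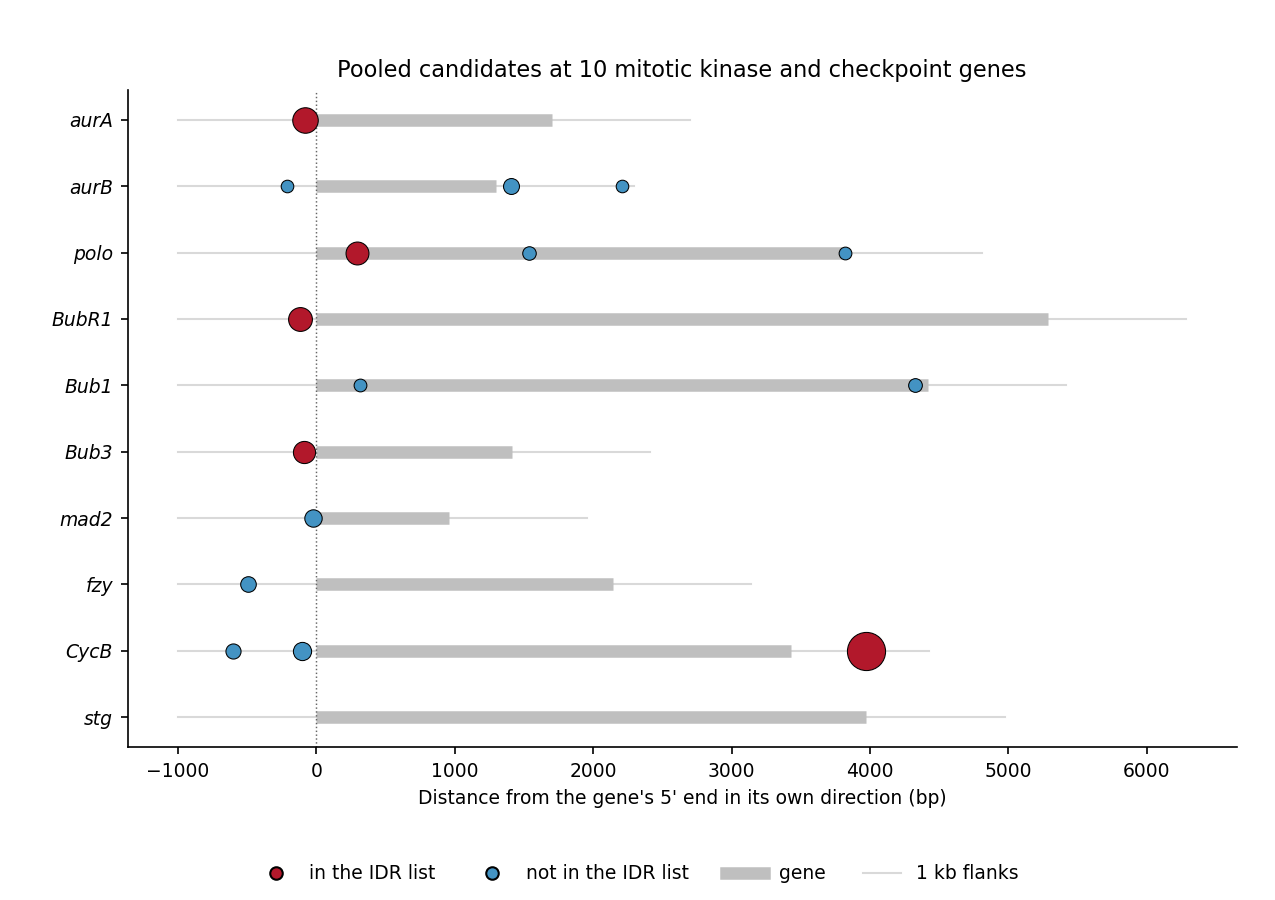
Pooled candidates along the 10 genes, drawn in the direction of each gene, with distance from its 5′ end in bp on the horizontal axis. Circles stand for summits, with area proportional to the pooled signal: red circles sit just upstream of aurA, BubR1 and Bub3, within the first part of polo and beyond the 3′ end of CycB.

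The sequences around 5 promoter summits are shown because the candidates differ in the short elements they hold. They are dm6 reference bases (RefSeq, Release 6 assembly), 5′ to 3′ on the strand of the named gene. All but the one from polo lie outside annotated exons. Capitals mark the BEAF-32 element CGATA on either strand and, for aurA, also TTTGAA, read as TTCAAA on the strand shown. The string TATCGATA, the DRE, holds CGATA on both strands with shared bases. The aurA window (chr3R:11962893-11963123, plus strand) and the Bub3 window (chr3R:29675422-29675650, minus strand) lie under IDR peaks. The polo site (chr3L:20309978-20310007, plus strand) lies under an IDR peak in the 5′ UTR, of which only this site is shown. The mad2 window (chr3L:5813094-5813269, minus strand) lies under a weaker candidate. The aurB window (chr2L:10858154-10858453, minus strand), under one of the weakest candidates, holds none of these elements and is shown as a contrast.
aurA: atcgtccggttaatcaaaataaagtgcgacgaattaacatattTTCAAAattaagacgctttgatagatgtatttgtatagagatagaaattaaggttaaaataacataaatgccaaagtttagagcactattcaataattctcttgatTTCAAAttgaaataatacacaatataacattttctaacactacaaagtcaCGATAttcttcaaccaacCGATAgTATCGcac
Bub3: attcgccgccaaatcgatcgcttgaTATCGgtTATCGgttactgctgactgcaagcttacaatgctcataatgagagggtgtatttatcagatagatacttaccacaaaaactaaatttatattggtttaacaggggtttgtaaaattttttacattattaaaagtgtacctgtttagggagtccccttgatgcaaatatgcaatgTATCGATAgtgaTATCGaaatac
polo: cgCGATAcataccagaaagtgtgCGATAgc
mad2: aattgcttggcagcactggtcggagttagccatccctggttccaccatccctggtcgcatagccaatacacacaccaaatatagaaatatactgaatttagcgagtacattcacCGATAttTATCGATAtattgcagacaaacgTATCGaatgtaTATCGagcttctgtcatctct
aurB: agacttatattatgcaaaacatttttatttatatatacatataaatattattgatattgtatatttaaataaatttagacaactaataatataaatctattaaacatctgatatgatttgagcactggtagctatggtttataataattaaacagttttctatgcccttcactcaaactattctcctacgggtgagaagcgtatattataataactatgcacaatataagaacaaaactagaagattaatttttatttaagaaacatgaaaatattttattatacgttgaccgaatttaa

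Among the Aurora and Polo kinase genes, aurA and polo had promoter peaks and aurB did not. Aurora A, the centrosomal and spindle pole kinase encoded by aurA, lies on the plus strand of 3R from 11963124 to 11964826. Its single interval, 11962855 to 11963230, had a pooled signal of 68.2 and rank 756. The matched candidate had a signal of 33.1 and rank 703 in replicate 1, and a signal of 34.1 and rank 974 in replicate 2. Both replicates thus placed it well inside their own strongest 1696. Its summit lay 81 bp upstream of the aurA TSS and 238 bp upstream of the TSS of CG3281, which runs the opposite way from 319 bp off. The peak therefore stood at a shared, divergent promoter, and these data do not assign it to either gene.

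For aurB, which encodes Aurora B, the kinase of the chromosomal passenger complex, the promoter candidate was near the bottom of the list. The gene spans 2L 10856797 to 10858094 on the minus strand, and this candidate had a pooled signal of 16.6 and rank 18440. In replicate 1 it ranked 24399 with a signal of 8.07, and in replicate 2 no candidate lay within 250 bp of it. It sat 210 bp upstream of aurB and 232 bp upstream of Stam, a gene for an endosomal sorting adaptor. The strongest interval in the flanks, with signal 26.6 and rank 5598, lay 45 bp upstream of the TSS of Dnz1, the next gene. That candidate ranked 4177 in replicate 1 and 14619 in replicate 2.

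At polo the IDR peak belonged to the gene's own promoter region alone. Polo kinase acts in mitotic entry, spindle assembly and cytokinesis, and its gene spans 3L 20309654 to 20313466 on the plus strand with 2 annotated TSSs. The interval 20309763 to 20310138 had a pooled signal of 55.1 and rank 1176. It ranked 2835 in replicate 1 with a signal of 17.4, and 861 in replicate 2 with a signal of 35.9. Only replicate 2 would have put it among its strongest 1696. The summit lay between both TSSs, 96 bp before the second and in the 5′ UTR of the longer transcript, and no other gene had a TSS within 500 bp. A weaker candidate of rank 12869 in a coding exon was found in replicate 1 at rank 3727 and had no match in replicate 2. A last one, of rank 17368 at the 3′ end, lay 155 bp upstream of alphaSnap, a membrane fusion gene.

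The spindle checkpoint genes split into BubR1 and Bub3 with promoter peaks, mad2 with an intermediate candidate and Bub1 with weak ones. BubR1, a subunit of the complex that inhibits fzy, spans 5969099 to 5974385 on the minus strand of 2R. Its interval, 5974315 to 5974690, had a pooled signal of 59.4 and rank 1001. It ranked 793 in replicate 1 with a signal of 31.6, and 1814 in replicate 2 with a signal of 26.4. Replicate 2 alone would have left it just past the strongest 1696. The summit was 118 bp upstream of the single BubR1 TSS, with no other TSS within 500 bp. The 3′ end of mle, a dosage compensation helicase gene, was 354 bp from the summit.

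Bub3, which encodes the WD-repeat partner of BubR1 and Bub1, occupies 29674007 to 29675421 of 3R, minus strand. Its interval, 29675319 to 29675694, had the weakest signal of the promoter peaks, 51.5, and rank 1358. The replicates gave rank 1593 with a signal of 22.5 in replicate 1, and rank 1965 with a signal of 25.5 in replicate 2. The summit lay 86 bp upstream of Bub3 and 144 bp upstream of Cap-D2, a condensin subunit gene that starts 230 bp away in the other direction. Here too a divergent pair shared the peak.

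For mad2, whose product forms the core of the checkpoint inhibitor, the candidate at 3L 5812932 to 5813307 had a pooled signal of 31.6 and rank 3821. It ranked 2245 in replicate 1 with a signal of 19.2, and 4988 in replicate 2 with a signal of 17.1. Neither replicate had it among the strongest 1696. The summit lay 27 bp upstream of the mad2 TSS, and 20.4% of protein-coding genes had a promoter candidate at least as strong. Bub1, the gene of the kinetochore scaffold kinase, spans 2L 5278865 to 5283283. Its promoter candidate had a signal of 17.0 and rank 17274, 124 bp downstream of a TSS. Replicate 1 ranked it 9389 and replicate 2 had no match. The other Bub1 candidate, in the 3′ UTR, had a signal of 19.7 and rank 11909. The promoter candidates of the checkpoint genes thus ranged from rank 1001 to rank 17274 of 21725.

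The gene fzy, the target of the checkpoint, had 1 pooled candidate, and it lay inside the neighbouring gene. This interval, 2L 16310277 to 16310652, had a signal of 25.5 and rank 6250. The summit was 491 bp upstream of fzy but in a coding exon of cni, the cargo receptor gene cornichon, 261 bp downstream of the cni TSS. Replicate 2 ranked it 3000 with a signal of 21.2, and replicate 1 had no candidate anywhere in fzy or its flanks.

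Cyclin B gave the highest value of the set away from its promoter. CycB, on the minus strand, spans 2R 22803521 to 22806948 and has 3 annotated TSSs. The interval 22802789 to 22803164 had a pooled signal of 152 and rank 104. The replicates ranked it 123 with a signal of 69.5 in replicate 1, and 100 with a signal of 83.5 in replicate 2. Its summit lay 544 bp beyond the 3′ end of CycB and 797 bp from the gene blw, which encodes a subunit of the mitochondrial ATP synthase. CycB and blw run towards each other, so the peak stood between both 3′ ends, and the nearest TSS of another gene was 3878 bp away. At the CycB promoter the candidate was weaker, with a signal of 34.8 and rank 3144, 101 bp upstream of a TSS. It ranked 2041 in replicate 1 and 4696 in replicate 2. A further candidate of rank 7240 lay 310 bp upstream of stl, the next gene upstream.

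The Cdc25 gene stg was empty in the pooled list. It spans 3R 29251826 to 29255800 on the minus strand, with 2 TSSs. Replicate 1 had 1 candidate in the gene, of rank 23280, and replicate 2 had 1 beyond its 3′ end, of rank 24878. These were different places, and both fell in the weaker part of lists of 30000. The nearest pooled summit lay 1879 bp upstream of a TSS, with a signal of 16.5 and rank 18750. Presence in a replicate list alone says little, since 77.3% of protein-coding genes had a replicate 1 candidate in the gene or its flanks and 75.8% a replicate 2 candidate. Of the 10 genes, 9 had one in replicate 1 and 10 in replicate 2.

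Set against all protein-coding genes, few promoters had a candidate as strong as that of aurA. At least as strong were 5.24% of genes in the pooled list, 4.67% in replicate 1 and 6.41% in replicate 2. For BubR1 the shares were 6.75%, 5.25% and 11.1% in the same order, for polo 7.70%, 15.1% and 5.72%, and for Bub3 8.71%, 9.93% and 11.9%. Among these 4 genes the replicate shares were furthest apart at polo. CycB followed with 17.7%, 12.2% and 22.6%, and mad2 with 20.4%, 13.0% and 23.6%. For fzy the share was 27.2% in the pooled list and 16.7% in replicate 2. Bub1 had 42.0% in the pooled list and 28.0% in replicate 1, and aurB 43.1% in both. Since 45.9% of genes had any pooled candidate at a promoter, the pooled values of Bub1 and aurB stand near the floor of that list.

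**Figure D2:**
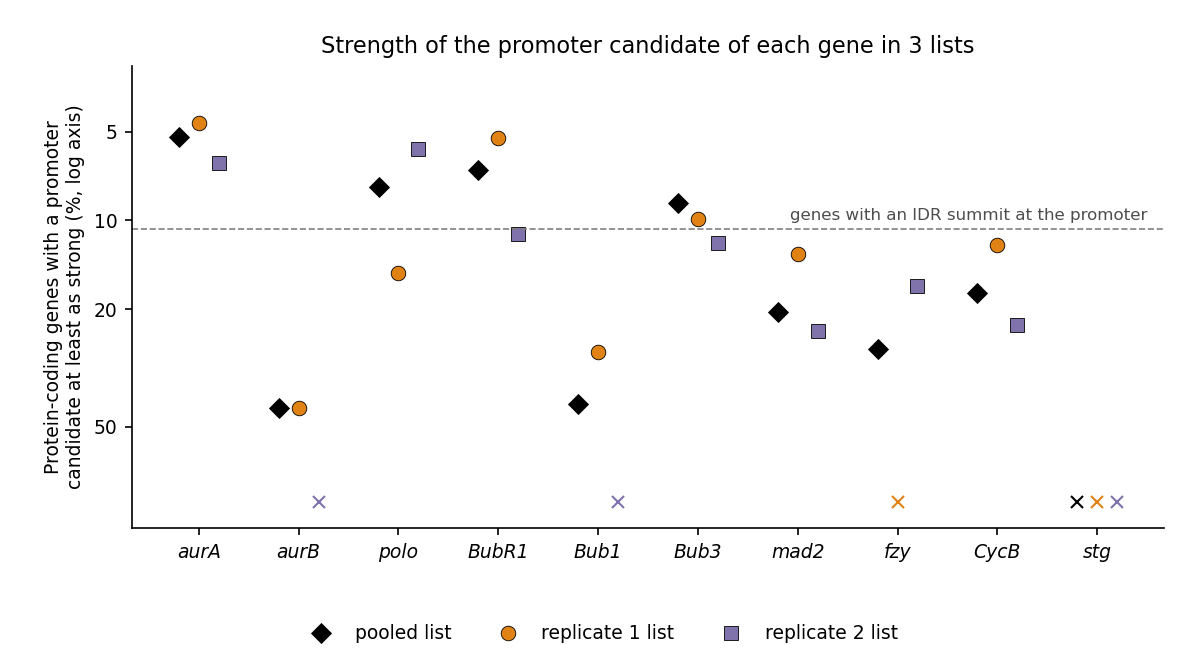
For each gene, the percentage of all protein-coding genes whose promoter candidate was at least as strong (log axis, strongest at the top) in the pooled list, replicate 1 and replicate 2. Crosses at the bottom mark lists with no candidate within 500 bp of a TSS; aurA alone stays above the dashed line at 10.7% in all 3 lists.

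The position of these summits was close to that of IDR peaks in general. At aurA, Bub3, polo and BubR1 they lay 81, 86, 96 and 118 bp upstream of the nearest TSS of the gene. Over the 1082 IDR summits within 500 bp of a protein-coding TSS, the median was 75 bp upstream and the quartiles were 150 and 22 bp upstream. All 4 thus fell within the middle range. Of the 9 pooled candidates within 500 bp of a TSS of these genes, 8 lay upstream of the nearest one, and the exception was Bub1. These 9 include 5 outside the IDR list. Of the 1082 IDR summits, 881 or 81.4% lay upstream. The same share for candidates outside the IDR list is not given here. Shared promoters accounted for 2 of the 4, at aurA and Bub3, where 39.6% of the 1082 had TSSs of 2 or more protein-coding genes within 500 bp.

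Of the 16 pooled candidates at the 10 genes, 5 were IDR peaks and 11 were not, beside 1696 IDR peaks among all 21725. The weakest IDR peak, at Bub3, ranked 1358, and the strongest of the others, at the CycB promoter, ranked 3144. The other 11 extended down to rank 18601. By location, 9 lay within 500 bp of a TSS of the gene itself, 3 only near the TSS of a neighbour (Dnz1, alphaSnap and stl), and 4 near none. The CycB peak downstream of the gene was the single IDR peak among the last 4. Over all pooled candidates, 1082 of 1696 IDR peaks and 5671 of 20029 others lay within 500 bp of a protein-coding TSS. Only intervals overlapping a gene or its 1 kb flanks were taken here, so these sets are not alike.

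The replicates placed the member peaks unequally. A candidate matched within 250 bp was found for 14 of the 16 in replicate 1 and for 13 in replicate 2. The same share over all pooled candidates is not given here. All 5 IDR peaks had a match in both, as did 1689 of all 1696 IDR peaks. Of these 5, 4 were among the strongest 1696 of replicate 1 and 3 among those of replicate 2, but only 2, at aurA and downstream of CycB, were among both. Over all IDR peaks, 61.4% were among the strongest 1696 of both replicates, 35.2% of one and 3.42% of neither. At the promoter itself, aurA was the 1 gene of 10 with an IDR summit and a candidate among the strongest 1696 of each replicate, beside 7.00% of protein-coding genes. The worse rank was 3.29 times the better at polo and 2.29 times at BubR1, in opposite directions. It was 1.38 times at aurA, 1.23 times at Bub3 and 1.23 times at the CycB peak, where the median over 1689 matched IDR peaks was 1.79 times. A difference between polo and BubR1 of this kind was not tested, as 2 replicates allow no test of a single region.

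**Figure D3:**
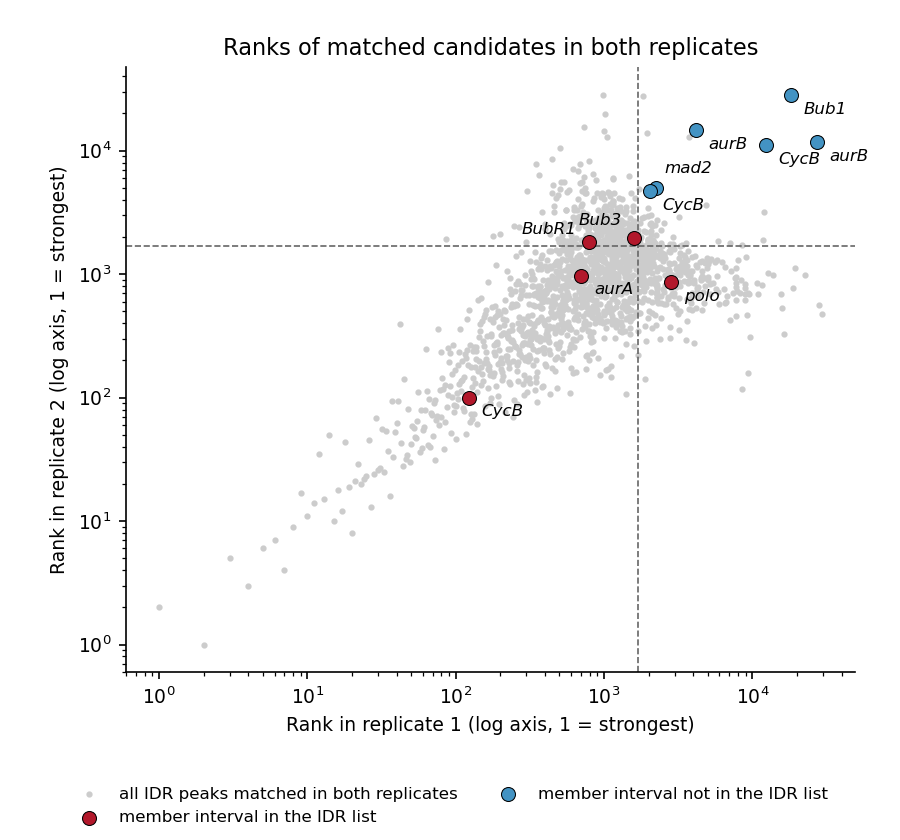
Rank of each matched candidate in replicate 1 and replicate 2 (log axes, 1 is the strongest), with candidates at the 10 genes in colour and all matched IDR peaks in grey. Dashed lines mark rank 1696: aurA and the CycB peak lie inside both lines, polo inside that of replicate 2, and BubR1 and Bub3 inside that of replicate 1.

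The windows of 100 bp on each side of the 16 summits divided by the BEAF-32 element CGATA, the core bound by an insulator protein found at many fly promoters. At least 2 matches, on either strand and with overlap allowed, were present in all 5 IDR windows, in the CycB promoter window and in the mad2 window. The other 9 windows, all of rank 5598 or weaker, had no match. Among all 1696 IDR windows 17.5% held such a pair, as did 1309 of the 20029 other pooled windows. At least 1 match was in 36.7% of IDR windows and 24.4% of the others. At the 1082 IDR peaks near protein-coding TSSs the pair was in 24.9%, and among the 5671 pooled candidates near such TSSs outside the IDR list it was in 15.0%. Windows placed over the 200 bp before each of 19253 protein-coding TSSs held it in 15.9%. The shares are across windows, and the grouping by rank was noticed after the values were seen, so no test is given.

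The element counts differed between these windows. The CycB promoter had 6 matches, mad2 had 5, and aurA, BubR1 and Bub3 had 3 each. At polo and at the downstream CycB peak there were 2. Where matches that share a base were counted once, the same 7 windows still held a pair. So did 15.2% of all IDR windows and 5.77% of the other pooled windows. Within 50 bp of the summit only mad2 and the CycB promoter, both outside the IDR list, kept a pair. None of the IDR windows at these genes did, beside 9.49% of all IDR windows. The share was 3.1% of the other pooled windows and 8.09% of those near protein-coding TSSs. At aurA the matches were centred 51, 69 and 75 bp from the summit on the TSS side, and in the printed sequence they stand at the right end, next to the start of the gene. At polo they were centred 31 and 52 bp from the summit. The capitals at the left end of the Bub3 sequence, and the left TTCAAA of the aurA sequence, lie over 100 bp from the summit and were not counted. The GC content of the 7 windows was 30.3% at aurA, 34.3% at Bub3, 34.8% at the downstream CycB peak, 35.8% at mad2, 38.3% at BubR1, 42.3% at the CycB promoter and 43.3% at polo. The quartiles over all IDR windows were 33.3% and 42.3%, so aurA lay below them and polo above.

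**Figure D4:**
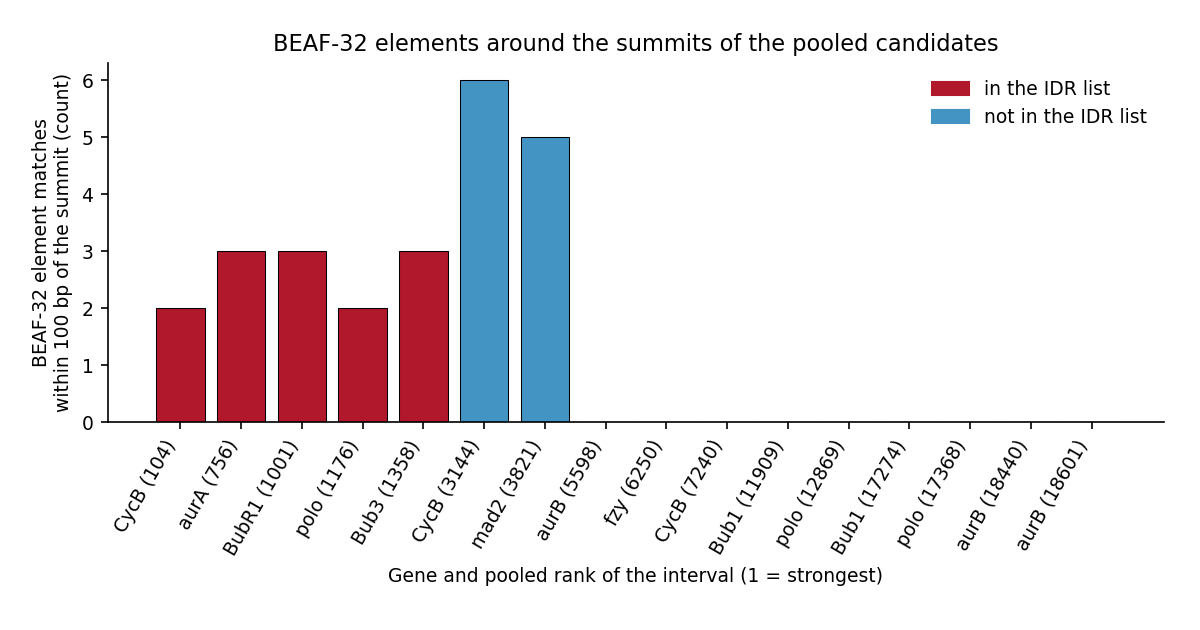
Number of BEAF-32 element matches within 100 bp of the summit of each of the 16 pooled candidates, ordered by pooled rank from the strongest on the left. The 7 strongest have 2 to 6 matches and the 9 weakest have 0.

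The DRE TATCGATA, which always contains 2 overlapping CGATA matches and is the site of the replication-related factor Dref, was present at BubR1, Bub3 and mad2, in 3 of 16 windows. It was in 7.02% of all IDR windows, 1.93% of the other pooled windows and 6.21% of the windows before protein-coding TSSs. These 3 windows lay at promoters. Near protein-coding TSSs the DRE was in 10.6% of IDR windows and 5.75% of the other pooled windows. At Bub3 it lay 66 bp downstream of the summit, towards the Bub3 TSS. The KLF core, CACACCC or CACGCCC, was in 0 of 16 windows, beside 2.42% of IDR windows and 5.17% of the other pooled windows. The Zelda motif CAGGTAG was also in 0 of 16, beside 0.943% of IDR and 1.05% of other windows. The GAGA motif GAGAGAG was in 0 of 16, beside 5.07% of IDR and 3.95% of other windows. At the CycB promoter, which is outside the IDR list, there was a match to the M1BP motif GGTCACACT, found in 2.00% of IDR and 1.13% of other windows. The same window held the Ohler7 motif, CATCNCTA or CAGCNCTA, found in 9.61% of IDR and 3.82% of other windows. Near protein-coding TSSs, the other pooled windows held M1BP in 3.76% and Ohler7 in 7.12%. An E2F site, written as TTTCCCGC, TTTCGCGC, TTTGCCGC or TTTGGCGC, was in 1 of 16, at the Dnz1 promoter downstream of aurB, beside 4.19% of IDR and 4.32% of other windows. The CHR element of cell cycle genes in animals, TTTGAA or TTCGAA, was in 3 of the 5 IDR windows, beside 36.5%, and in 4 of the 11 others, beside 26.5%. All motifs were searched on both strands, and a match is a string of letters and not a measured site.

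Other genes of mitosis had IDR peaks at their promoters about as often as all protein-coding genes. In 7 lists with 71 genes matched to the annotation, 8 genes or 11.3% had an IDR summit within 500 bp of a TSS, against 10.7% of protein-coding genes. There was a pooled candidate at the promoter of 45 of the 71, or 63.4%, against 45.9%. An IDR interval in the gene or its 1 kb flanks was found for 14 of the 71, beside 16.8% of protein-coding genes. The list nearest in function to the 10 genes, other chromosomal passenger and checkpoint genes, had 0 of 10 at promoters. In the gene or its flanks it had 1, at rod, with an interval of rank 73 past the 3′ end. In this list, Mad1, whose product anchors mad2 at kinetochores, had a promoter candidate of rank 6441, also near the TSS of Drep2. It ranked 2256 in replicate 1 and 12105 in replicate 2. Partners of Aurora and Polo had 0 of 5 at promoters, where the centriole kinase gene SAK had a candidate of rank 3763. Its summit lay 367 bp upstream and also near the TSS of Cdk12, with rank 1881 in replicate 1 and 9963 in replicate 2. The separase list had 0 of 3.

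Spindle and cytokinesis genes had 4 of 11. The strongest was at sti, which encodes citron kinase, with a signal of 119 and rank 204, and ranks of 228 in replicate 1 and 191 in replicate 2. Its summit lay 33 bp upstream, and the promoter of tral was within 500 bp as well. The kinesin gene sub followed with a signal of 73.3 and rank 646, but its summit was 492 bp from the sub TSS and near CG10931. The cytokinesis gene pbl had a signal of 60.3 and rank 963, and the septin gene pnut a signal of 50.7 and rank 1407. In replicate 2 pnut ranked 4257, against 1099 in replicate 1.

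The kinetochore list had 2 of 14, where the 14 include nsl1, which is not a kinetochore gene. The peaks were at Spc25 of the Ndc80 complex, with a signal of 57.7 and rank 1069, and at cmet. The latter, a CENP-E type motor gene, had 48.9 and rank 1517. The Spc25 peak also lay at the promoter of grsm. The anaphase-promoting complex list had 1 of 13, at the subunit gene Cdc16 with a signal of 49.2 and rank 1496, shared with the promoter of orb. Cyclins, Cdk1 and their controls had 1 of 15, at mts, the catalytic subunit of phosphatase PP2A, with a signal of 60.2 and rank 968 and a summit 383 bp upstream, near Rack1. A pooled candidate was at the promoter of 5 of 10 passenger and checkpoint genes, 8 of 13 anaphase-promoting complex genes and 4 of 5 Aurora and Polo partners. So it was for 7 of 14 genes of the kinetochore list (nsl1 among the 7), 1 of 3 separase genes and 6 of 11 spindle and cytokinesis genes. Among cyclins, Cdk1 and their controls 14 of 15 had one, where 45.9% of all protein-coding genes did. Those 14 included gwl, the Greatwall kinase gene, at rank 2102, the PP2A subunit gene tws at rank 2104, and Cdk1 itself at rank 2864. In replicates 1 and 2 the ranks were 1986 and 2470 at gwl, 1320 and 3422 at tws, and 1337 and 9803 at Cdk1. The gwl summit lay 311 bp upstream and also near the TSS of PGS1. The Cdk1 summit lay 306 bp upstream and also near that of mRpS7.

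**Figure D5:**
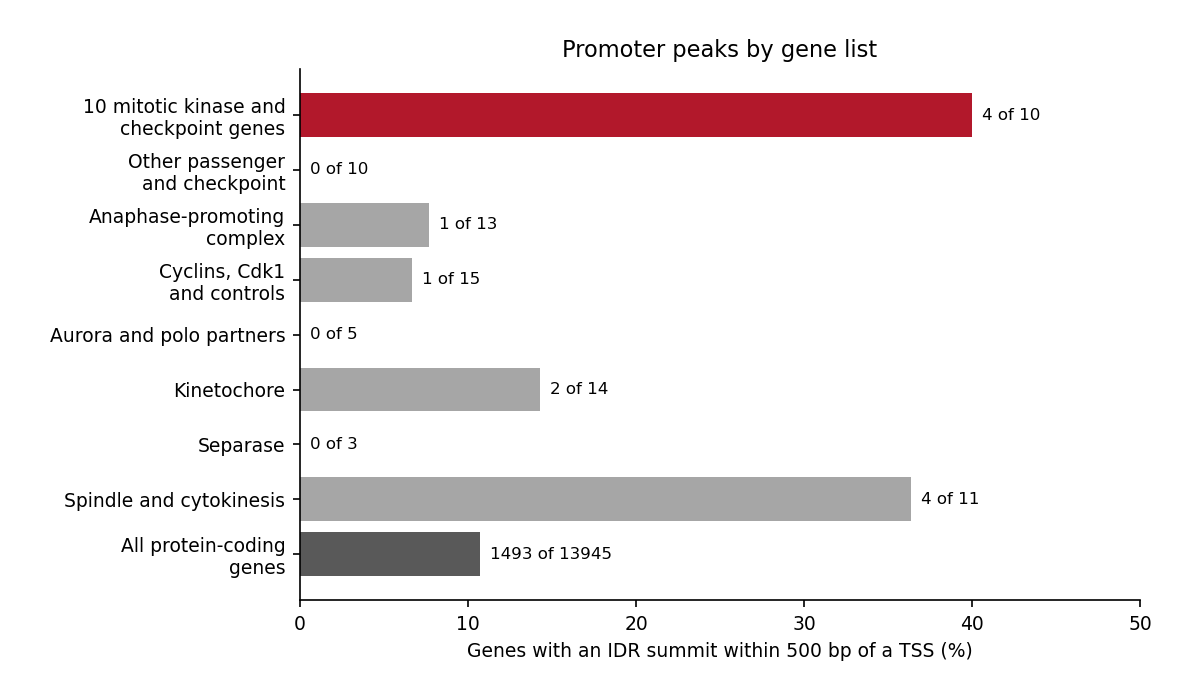
Percentage of genes with an IDR summit within 500 bp of a TSS in the 10 genes, in the 7 other lists of mitotic genes and in all protein-coding genes, with counts beside the bars. The 10 genes reach 4 of 10 and spindle and cytokinesis genes 4 of 11, while the other lists hold 0 to 2 genes each.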

How the data were processed

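The narrowPeak lists used were in build dm6: pooled candidates, IDR peaks and the candidates of each of 2 biological replicates. Per the deposited README texts, candidates came from the replicates' alignments and a further file of unnamed kind, and the IDR list from the other 3 lists. No source used here names the aligner, the peak caller or the IDR cut. Column 7 holds a signal value as deposited, a score that ranked intervals within a list. The deposited q value on the −log10 scale is 3.57 in every IDR peak and ranked nothing. Depth is unknown.

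Genes and TSSs came from Ensembl release 115 (BDGP6.54, dm6 coordinates) and bases from the RefSeq Release 6 assembly. Coordinates are 1-based. Scripts ran in Python 3.11.15, and the overlap calls were tested on simulated data. Replicate candidates were matched by nearest summit within 250 bp. All 10 members are named, with neighbours whose TSS lies within 500 bp of a summit and, of each list, up to 4 genes with the strongest promoter peaks. Genes named for a strong candidate outside the IDR list were chosen after their values were seen. The members and lists were chosen with earlier results of these data known. Of 73 list symbols, 2 (lmg and Cdc26) were not matched. Nsl1 was matched without regard to case to nsl1, a gene of a chromatin complex and not of the kinetochore, which stayed in the counts with a pooled candidate (rank 3490) and no IDR peak. No test was made. Alternatives changed the list of peaks, the promoter distance, the flank, the overlap rule and the replicate.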

Additional observations from a re-analysis of the deposited data

How the results depend on the processing

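Of 24 alternatives tried for the counts, 16 stayed within 1.5 times the reported count. Genes among the 10 with a promoter peak numbered 1 (aurA) in the strongest 848 IDR peaks, where the share of all protein-coding genes was 5.79%, and 2 to 3 when 1 replicate was left out: aurA and polo without replicate 1, and aurA, BubR1 and Bub3 without replicate 2. In the gene or its flanks the count was 2 among the strongest 848, at aurA and CycB (all genes 9.22%), and 3 to 4 with 1 replicate left out. With a replicate left out, the strongest 1696 candidates of the other were taken, a list as long as the IDR list. The share of all protein-coding genes with a promoter peak was then 10.4% to 10.5%. Other mitotic genes with a promoter peak numbered 2 among the strongest 848, 20 among the 3392 strongest pooled candidates (all genes 18.6%), 5 with a promoter of 250 bp (all genes 8.77%) and 8 to 10 with a replicate left out. Within 50 bp of the summit, an alternative chosen after the data were seen, 2 member windows held the BEAF-32 pair and not 7. The cause of these shifts was not tested. Where BEAF-32 matches sharing a base counted once, also chosen then, the count stayed at 7. Ranking by column 8 could not be done, since it holds the same value in every interval. No paired analysis was possible because there is 1 group. Unknown depth limits every list, and a gene without a candidate may have signal below its floor.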

Other observations

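Some mitotic genes had a strong candidate at the promoter in 1 replicate and none in the other. At Map205, which encodes a microtubule protein that binds Polo, the promoter candidate ranked 1494 of 30000 in replicate 2 and there was none in replicate 1. At the kinesin gene Klp67A the candidate ranked 1999 in replicate 1, with none in replicate 2 and none in the pooled list. These genes were chosen after their values were seen, and their difference was not tested.

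The IDR peaks nearest to the members without one differed in distance. The nearest IDR summit lay 6376 bp from the TSS of mad2, 6958 bp from that of fzy, 35180 bp from a TSS of stg, 63485 bp from a TSS of Bub1 and 146058 bp from that of aurB. The one nearest to stg had a signal of 139 and rank 131, and the one nearest to Bub1 a signal of 138 and rank 135. Both lay on the downstream side of the gene, and nothing in these lists ties them to it.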
